A study of Mus musculus with 17 samples.

Results

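The clock output factors described here are 8 genes of the 47643 symbols in the table: Dbp, Hlf and Tef, which encode the PAR bZIP transcription factors; Nr1d1 and Nr1d2, which encode the nuclear receptors REV-ERBα and REV-ERBβ; Ciart, which encodes a repressor also known as CHRONO; and Bhlhe40 and Bhlhe41, which encode the repressors DEC1 and DEC2. They were chosen by symbol, as PAR bZIP factors and related clock outputs that are driven through E-box sequences, and earlier results of these data were known when they were chosen. The difference between tumor-bearing mice with and without rFibcd1, in which Dbp and Hlf stood low, took part in that choice, so that difference is given below as a description with no test. All 8 passed the filter on low values (at least 1 TPM in at least 3 mice), which kept 13305 genes.

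RNA was sequenced from the diaphragm, the main muscle of breathing, of 17 male C57BL/6J mice that were 4 months old. Control mice (n = 5) carried no tumor and received mock injections, and Control + rFibcd1 mice (n = 5) carried no tumor and received rFibcd1, a recombinant form of the secreted part of mouse Fibcd1, into the peritoneal cavity. LLC mice (n = 3) carried tumors of Lewis lung carcinoma cells, a mouse line, grown under the skin and received mock injections, and LLC + rFibcd1 mice (n = 4) carried the same tumors and received rFibcd1. The labels name no engineered allele, and all tumors came from a single cell line. The hour at which each diaphragm was taken is not given in the sources used here, so that for these genes the time of day and the group cannot be told apart.

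The circadian clock is a transcriptional loop that runs in nearly every cell, muscle fibers included. BMAL1 (encoded by Arntl) and CLOCK bind E-boxes and activate the Per and Cry genes, whose proteins then block them, and the same E-boxes drive the output factors. DBP, TEF and HLF activate genes through D-boxes, while the REV-ERBs silence Arntl and other genes through ROR elements, and DEC1, DEC2 and CHRONO act as further brakes on BMAL1 and CLOCK. Dbp in particular is known for one of the widest daily swings of any transcript in liver and muscle.

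The promoters are shown because the members were chosen as E-box-driven outputs. Of the 8 members, 7 had an entry in the RefSeq promoter table (build GRCm38.p6), Tef with 2 start sites, and Bhlhe40 had none. Each window below is the 250 bases before the RefSeq start site, 5′ to 3′ on the strand of the gene. The gene positions given further on are GENCODE spans, whose starts can differ from these. The windows of Dbp, Nr1d2, Ciart and Bhlhe41 reach into those spans, and the windows of Tef lie inside its span. Capitals mark CACGTG, the E-box, which reads the same on both strands, or CACGTT, the related E-box-prime, which appears as AACGTG on the opposite strand. The windows are Dbp at chr7:45704997-45705246 (plus strand), the downstream start of Tef at chr15:81811164-81811413 (plus), Nr1d1 at chr11:98775378-98775627 (minus), Ciart at chr3:95882229-95882478 (minus) and Bhlhe41 at chr6:145865421-145865670 (minus).
Dbp: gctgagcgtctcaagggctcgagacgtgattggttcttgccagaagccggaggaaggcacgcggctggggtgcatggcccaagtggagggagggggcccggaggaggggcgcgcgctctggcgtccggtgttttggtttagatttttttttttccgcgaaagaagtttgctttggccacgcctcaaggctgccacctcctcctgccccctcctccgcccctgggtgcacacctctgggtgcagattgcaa
Tef: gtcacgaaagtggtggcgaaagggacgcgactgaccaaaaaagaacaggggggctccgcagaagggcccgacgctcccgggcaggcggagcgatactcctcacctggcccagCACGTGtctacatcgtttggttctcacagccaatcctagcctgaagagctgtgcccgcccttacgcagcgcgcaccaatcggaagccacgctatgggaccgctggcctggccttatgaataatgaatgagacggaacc
Nr1d1: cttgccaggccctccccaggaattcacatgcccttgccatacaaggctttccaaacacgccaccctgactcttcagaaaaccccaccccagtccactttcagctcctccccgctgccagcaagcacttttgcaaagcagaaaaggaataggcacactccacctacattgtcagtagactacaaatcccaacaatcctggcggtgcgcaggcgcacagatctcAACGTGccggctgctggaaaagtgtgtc
Ciart: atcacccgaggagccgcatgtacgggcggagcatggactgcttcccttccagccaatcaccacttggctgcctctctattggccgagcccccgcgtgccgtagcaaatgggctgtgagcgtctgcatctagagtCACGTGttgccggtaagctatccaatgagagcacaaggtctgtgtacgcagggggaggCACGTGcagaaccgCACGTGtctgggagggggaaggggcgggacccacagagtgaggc
Bhlhe41: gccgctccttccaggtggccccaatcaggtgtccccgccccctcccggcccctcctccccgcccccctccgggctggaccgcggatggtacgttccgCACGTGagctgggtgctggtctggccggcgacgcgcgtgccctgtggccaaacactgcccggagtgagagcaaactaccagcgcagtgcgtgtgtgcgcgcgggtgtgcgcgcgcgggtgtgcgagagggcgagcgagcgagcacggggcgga

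CACGTG was present in 3 of the 7 members with an entry, Tef (both start sites), Ciart and Bhlhe41, against 6.02% of 32851 promoter windows of the same length. Ciart held 3 copies, the nearest 44 bases before its start, and 0.0609% of windows held at least that many. Nr1d1 held 1 CACGTT on the opposite strand, 28 bases before its start, which 3.85% of windows held on either strand. The D-box letters TTATGTAA or TTACGTAA, on either strand, were in none of the members' windows and in 0.931% of all windows. AGGTCA, the core site that REV-ERBs and RORs recognize, was in the window of Nr1d2 only among the members, and in 14.0% of all windows on either strand. The Dbp and Hlf windows held none of these motifs. Since the members were chosen as E-box-driven genes, nothing is read from their share of E-box windows. These matches describe letters in a short window, and binding was not measured.

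The libraries were alike in depth, with 50.8 to 54.6 recovered reads per mouse in units of 1000000. Between 94 and 1120 reads stood behind a value of Ciart, the most thinly covered member, and between 3519 and 15015 behind a value of Dbp. The summed level of 9 myofiber markers (Acta1, Ckm and others) was 57900 to 62745 TPM in Control, 56636 to 63779 TPM in Control + rFibcd1, 49506 to 52787 TPM in LLC and 51439 to 59461 TPM in LLC + rFibcd1, so that every LLC mouse was below every tumor-free mouse. The summed level of 5 endothelial markers was 139 to 167 TPM in Control, 136 to 163 TPM in Control + rFibcd1, 162 to 184 TPM in LLC and 181 to 205 TPM in LLC + rFibcd1, where all 4 mice were above every tumor-free mouse. The part of these shifts in the members' differences was not tested. B cell, T cell and neutrophil markers were higher in LLC mice, with a summed B cell level of 226 to 287 TPM against 2.45 to 97.1 TPM in Control. Mice of LLC + rFibcd1 spread over 18.3 to 282 TPM on the same markers and over 56.4 to 211 TPM on the neutrophil markers (4.90 to 16.8 TPM in Control). Hepatocyte genes such as Alb summed to 2981 TPM in Control + rFibcd1 replicate 2 and to at most 305 TPM in any other mouse. Macrophage markers summed to 1531 TPM in Control + rFibcd1 replicate 1 and to at most 822 TPM in any other mouse. That replicate also had the highest B cell (139 TPM) and adipocyte sums (562 TPM) of the tumor-free mice. In whole-muscle RNA, fewer cells of a type and less RNA per cell cannot be told apart.

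In Control diaphragm the output factors spanned a wide range of levels. TPM is scaled by transcript length, so these levels can be set side by side. Dbp was the highest at 160 ± 22.1 TPM (mean ± SD, n = 5), followed by Nr1d1 at 97.9 ± 38.7 TPM, Tef at 75.1 ± 6.90 TPM, Bhlhe40 at 64.8 ± 8.18 TPM and Nr1d2 at 52.8 ± 7.79 TPM. Ciart at 12.9 ± 5.12 TPM, Bhlhe41 at 11.6 ± 2.20 TPM and Hlf at 8.16 ± 1.59 TPM formed the low end. The ranges of neighbours in this order overlapped except between Nr1d2 and Ciart. Nr1d1 and Ciart varied most between Control mice, with coefficients of variation of 39.5% and 39.6%, and Tef least at 9.19%, against a median of 10.03% over all genes tested.

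**Figure D1:**
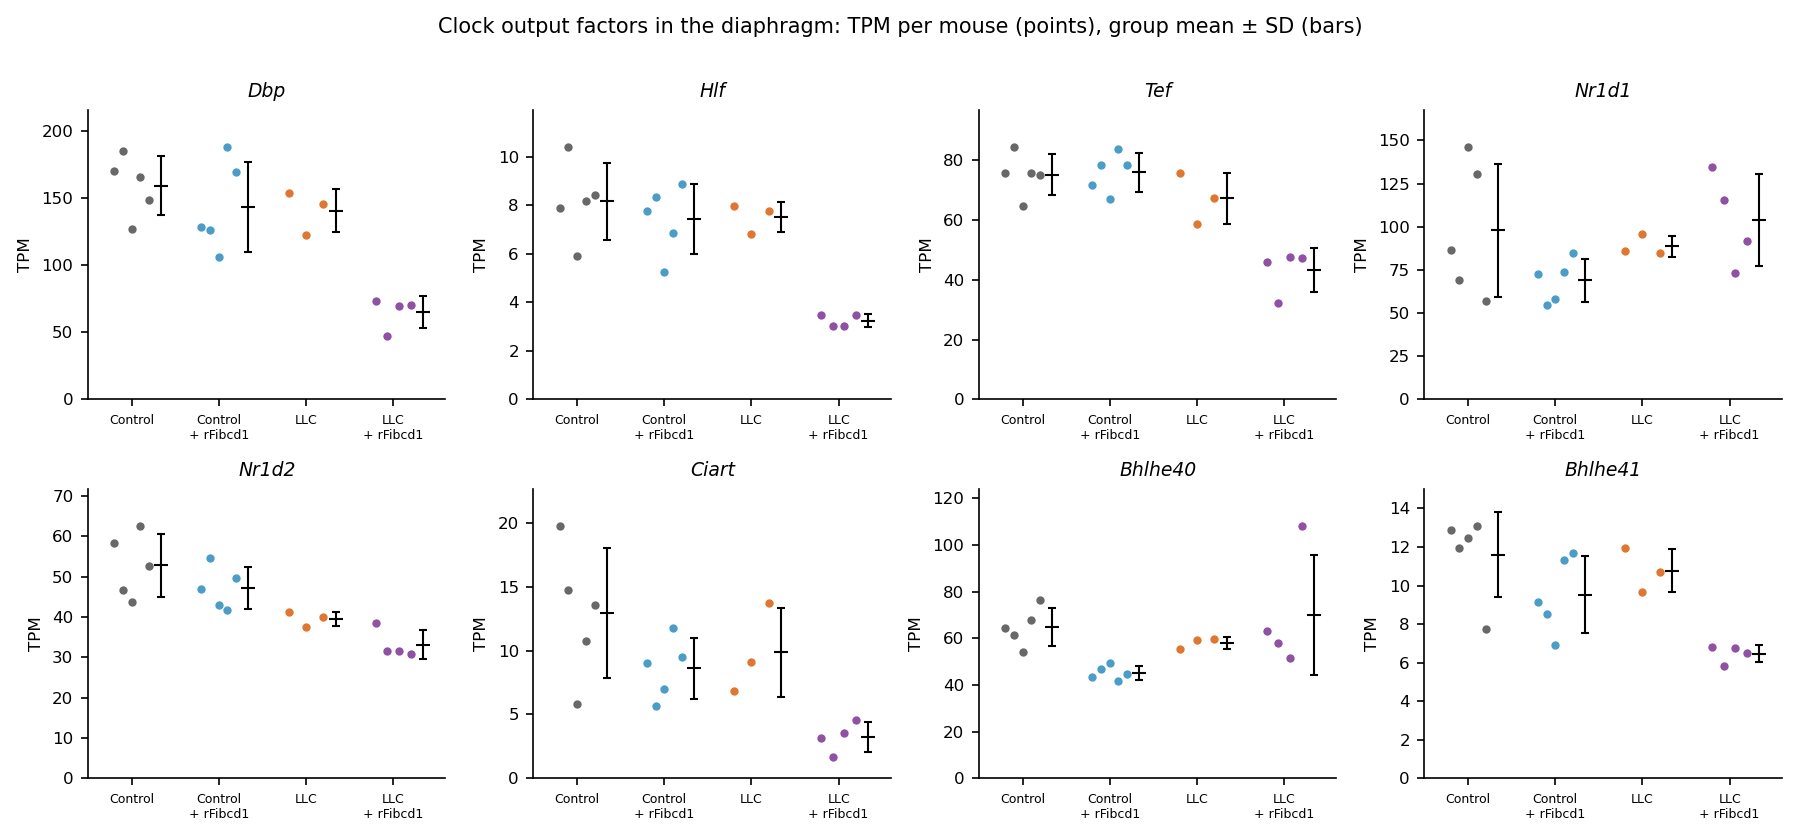
TPM of the 8 clock output factors (y axis, from 0) in each mouse (points) of the 4 groups (x axis), with the group mean ± SD as black bars. Dbp, Hlf, Tef, Ciart and Bhlhe41 lie lower in the 4 LLC + rFibcd1 mice than in any LLC mouse, whereas Nr1d1 and Bhlhe40 do not.

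Dbp, the PAR bZIP factor for which the family's daily output is best known, lies on chromosome 7 (45705088 to 45710203, plus strand, GRCm38). It was measured at 171, 185, 128, 166 and 149 TPM in Control, at 129, 126, 106 and then 188 and 169 TPM in Control + rFibcd1, at 154, 123 and 146 TPM in LLC, and at 73.4, 47.0, 70.1 and 70.3 TPM in LLC + rFibcd1. All 4 LLC + rFibcd1 mice were below every mouse of the other groups, which overlapped with each other. The LLC + rFibcd1 mean was 40.8% of the Control mean and 46.3% of the LLC mean. On log2(TPM + 1), the scale of all differences below, this was a difference of -1.29 ± 0.17 (SE) from Control, -1.12 ± 0.17 from Control + rFibcd1 and -1.12 ± 0.19 from LLC. These 3 values belong to the group that took part in choosing Dbp and carry no test. Sphk2, on the opposite strand, shares 539 exon bases with Dbp (18.0% of its exon length) and was at 5.55 to 11.0 TPM. Whether the counting used strand is not given in the sources used here, so a part of the Dbp reads may come from Sphk2.

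Hlf, which encodes hepatic leukemia factor, lies on chromosome 11 (90336536 to 90390895, minus strand) and had the lowest mean of the 8 in every group except LLC + rFibcd1, where Ciart was lower (3.22 against 3.25 TPM). It stood at 7.90, 10.4, 5.93, 8.16 and 8.41 TPM in Control, at 7.78, 8.35, 5.23, 6.86 and 8.89 TPM in Control + rFibcd1, at 7.98, 6.81 and 7.76 TPM in LLC, and at 3.48, 3.01, 3.04 and 3.47 TPM in LLC + rFibcd1. The lowest mouse outside LLC + rFibcd1 was Control + rFibcd1 replicate 3, and it was still above all 4. The LLC + rFibcd1 mean was 39.9% of the Control mean, with log2 differences of -1.09 ± 0.14 (SE) from Control, -0.97 ± 0.14 from Control + rFibcd1 and -1.001 ± 0.155 from LLC, again with no test.

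Tef, which encodes thyrotroph embryonic factor, lies on chromosome 15 (81802421 to 81826863, plus strand). Its coefficient of variation was the lowest of the PAR bZIP genes in Control (9.19%) and Control + rFibcd1 (8.65%), but not in LLC (12.7%, against 8.25% for Hlf) or LLC + rFibcd1 (17.05%, against 8.08% for Hlf). Its level was 75.5, 84.2, 64.7, 75.8 and 75.0 TPM in Control, 71.7, 78.3, 67.0, 83.8 and 78.4 TPM in Control + rFibcd1, 75.6, 58.5 and 67.5 TPM in LLC, and 45.9, 32.2, 47.5 and 47.3 TPM in LLC + rFibcd1. Again the 4 LLC + rFibcd1 mice lay below every other mouse. Tef fell to 57.6% of the Control mean in LLC + rFibcd1, less far than Dbp and Hlf in the same mice. Within a mouse, Dbp was 1.97 to 2.26 times Tef in Control, 1.59 to 2.24 times in Control + rFibcd1, 2.04 to 2.17 times in LLC and 1.46 to 1.60 times in LLC + rFibcd1, where the range touched that of Control + rFibcd1 only at its top.

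Ciart, a repressor that binds BMAL1, lies on chromosome 3 (95878503 to 95882251, minus strand) and differed most of the 8 between LLC + rFibcd1 and each of the other groups. It was at 19.7, 14.8, 5.86, 10.8 and 13.6 TPM in Control, at 9.06, 5.66, 7.01, 11.8 and 9.53 TPM in Control + rFibcd1, at 6.82, 9.12 and 13.7 TPM in LLC, and at 3.14, 1.66, 3.54 and 4.54 TPM in LLC + rFibcd1. The 3 groups other than LLC + rFibcd1 overlapped widely, and all 4 mice of that group were below them. Its mean there was 24.9% of the Control mean and 32.6% of the LLC mean.

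Bhlhe41, which encodes DEC2, was measured at 12.9, 11.9, 12.4, 13.1 and 7.74 TPM in Control, 9.16, 8.51, 6.94, 11.3 and 11.7 TPM in Control + rFibcd1, 11.9, 9.67 and 10.7 TPM in LLC, and 6.79, 5.83, 6.78 and 6.50 TPM in LLC + rFibcd1. The LLC + rFibcd1 mice were again the lowest, close to Control + rFibcd1 replicate 3 and Control replicate 5. Its paralog Bhlhe40, which encodes DEC1 and responds to many stimuli besides the clock, had another pattern, with 64.4, 61.6, 54.0, 67.7 and 76.3 TPM in Control, 43.4, 47.0, 49.3, 41.7 and 44.6 TPM in Control + rFibcd1, 55.3, 59.1 and 59.7 TPM in LLC, and 63.0, 58.0, 51.4 and 108 TPM in LLC + rFibcd1. For Bhlhe40 it was the Control + rFibcd1 mice that lay below all others, and LLC + rFibcd1 replicate 4 lay above all others. Bhlhe40 exceeded Bhlhe41 by 4.34 to 9.86 times within a Control mouse and by 7.59 to 16.6 times within an LLC + rFibcd1 mouse. The genes lie on chromosome 6, Bhlhe40 at 108660629 to 108666925 (plus strand) and Bhlhe41 at 145858243 to 145865558 (minus strand).

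The REV-ERB genes also parted. Nr1d2 (chromosome 14, 18204054 to 18239127, minus strand) was at 58.4, 46.7, 43.8, 62.5 and 52.6 TPM in Control, 47.0, 54.6, 43.0, 41.6 and 49.7 TPM in Control + rFibcd1, 41.1, 37.6 and 39.9 TPM in LLC, and 38.5, 31.7, 31.5 and 30.7 TPM in LLC + rFibcd1. Both tumor groups were below both tumor-free groups without overlap, and the tumor groups overlapped with each other through LLC + rFibcd1 replicate 1. Nr1d1 (chromosome 11, 98767932 to 98775333, minus strand) was at 86.5, 69.3, 146, 131 and 57.1 TPM in Control, 72.6, 54.9, 58.4, 73.9 and 85.1 TPM in Control + rFibcd1, 85.7, 95.7 and 84.7 TPM in LLC, and 135, 115, 73.5 and 91.7 TPM in LLC + rFibcd1. For Nr1d1 the Control mice alone spanned the range of every other mouse except Control + rFibcd1 replicate 2, which was the lowest. Nr1d1 stood at 1.08 to 3.33 times Nr1d2 within a Control mouse and at 2.33 to 3.64 times within an LLC + rFibcd1 mouse. Nr1d1 shares 263 exon bases (8.55% of its length) with Thra on the opposite strand, which was at 22.7 to 37.5 TPM.

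The first comparison asked which output factors differed in tumor-bearing mice without rFibcd1. Nr1d2 fell in LLC against Control, and the other 7 members did not pass the test. The log2 difference of Nr1d2 was -0.40 ± 0.11 (SE; limma adjusted p = 0.0180, n = 3 against 5), and it was lower in 3 of 3 LLC mice than in any Control mouse. All 8 estimates were negative in this fit, from -0.05 for Nr1d1 to -0.32 ± 0.33 for Ciart among the 7 that did not pass, with a median over the 8 of -0.16. The Ciart estimate was -0.10 without LLC replicate 1 and -0.56 without LLC replicate 3, and the signs of Nr1d1 and Bhlhe40 turned in some other fits. The 1 member called compares with 35.8% of all genes tested in either direction and 6.02% as lower, and the 1 member below without overlap compares with 6.67% of genes, so a count of 1 is no result about the 8 as a group. The median gene rose by 0.16 in this comparison on TPM, and that shift was 0.01 after median-ratio scaling and -0.10 after quantile normalization. Relative to the median gene Nr1d2 was lower by 0.56 on the log2 scale (-0.56). The call on Nr1d2 in LLC against Control was lost with the mean log2(TPM + 1) of the B cell markers as a covariate (limma adjusted p = 0.267). The call was also lost with the replicate block (0.0653), with Dunn's test (0.118) and without LLC replicate 3 (0.0775). The Nr1d2 difference was -0.39 with the covariate, -0.39 with the block and -0.40 without that mouse. The genes called in all went from 4759 to 9, 5 and 24. For Dbp, the 95% interval of the difference between LLC and Control ran from -0.57 to 0.22, and for Hlf from -0.41 to 0.23, on TPM as deposited. These values moved with the scaling, Dbp in LLC against Control from -0.17 to -0.36 with median-ratio scaling and -0.31 with quantile normalization, and Hlf in LLC against Control from -0.09 to -0.25 and to -0.37 ± 0.14 (limma adjusted p = 0.0528), with neither passing.

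The second comparison asked which output factors differed with rFibcd1 in tumor-free mice. No member passed the adjusted threshold in Control + rFibcd1 against Control, as no gene did (0% of 13305 called by limma, 584 at an unadjusted p under 0.05, and 0 by Dunn's test). Bhlhe40 was the 1 member at an unadjusted p under 0.05. Its mean was 69.7% of the Control mean, and the log2 difference was -0.50 ± 0.15 (SE; limma adjusted p = 0.927), with 5 of 5 treated mice below every Control mouse. A share of 0.804% of genes tested was below without overlap in this way. A two-sided exact permutation test of Bhlhe40 alone gave p = 0.00794, the smallest that 252 splits of these mice allow, and it takes no account of the other genes tested. Of the other members, Ciart (-0.48 ± 0.28), Nr1d1 (-0.43 ± 0.23) and Bhlhe41 (-0.26 ± 0.14) were next in size, and Tef was at 0.02 ± 0.11.

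The third comparison set LLC + rFibcd1 against Control. Of the 6 members tested, Tef, Nr1d2, Ciart and Bhlhe41 fell and Nr1d1 and Bhlhe40 did not pass. Tef differed by -0.79 ± 0.11 (SE; limma adjusted p = 0.00316), Nr1d2 by -0.65 ± 0.10 (0.00480), Ciart by -1.68 ± 0.30 (0.00777) and Bhlhe41 by -0.74 ± 0.15 (0.0153), each lower in 4 of 4 mice than in any of the 5 Control mice. These 4 calls of 6 compare with 3.08% of all genes tested, 1.01% as lower, and the same 4 were below without overlap, as 2.92% of genes were. The same LLC + rFibcd1 mice took part in choosing the members, so neither this count nor these p-values are independent of the choice. Nr1d1 was at 0.14 ± 0.25 (limma adjusted p = 0.788, 95% interval -0.39 to 0.67) and Bhlhe40 at 0.06 ± 0.16 (0.866). Without LLC + rFibcd1 replicate 2, the lowest mouse of its group for Dbp, Hlf, Tef, Ciart and Bhlhe41, Bhlhe41 was at -0.69 with an adjusted p of 0.0516 and the other 3 calls held. Dunn's test called none of the 4 (adjusted p = 0.348 for each). It called 0 of 13305 genes in this and every other comparison tested, so a lost call there does not single out these members.

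**Figure D2:**
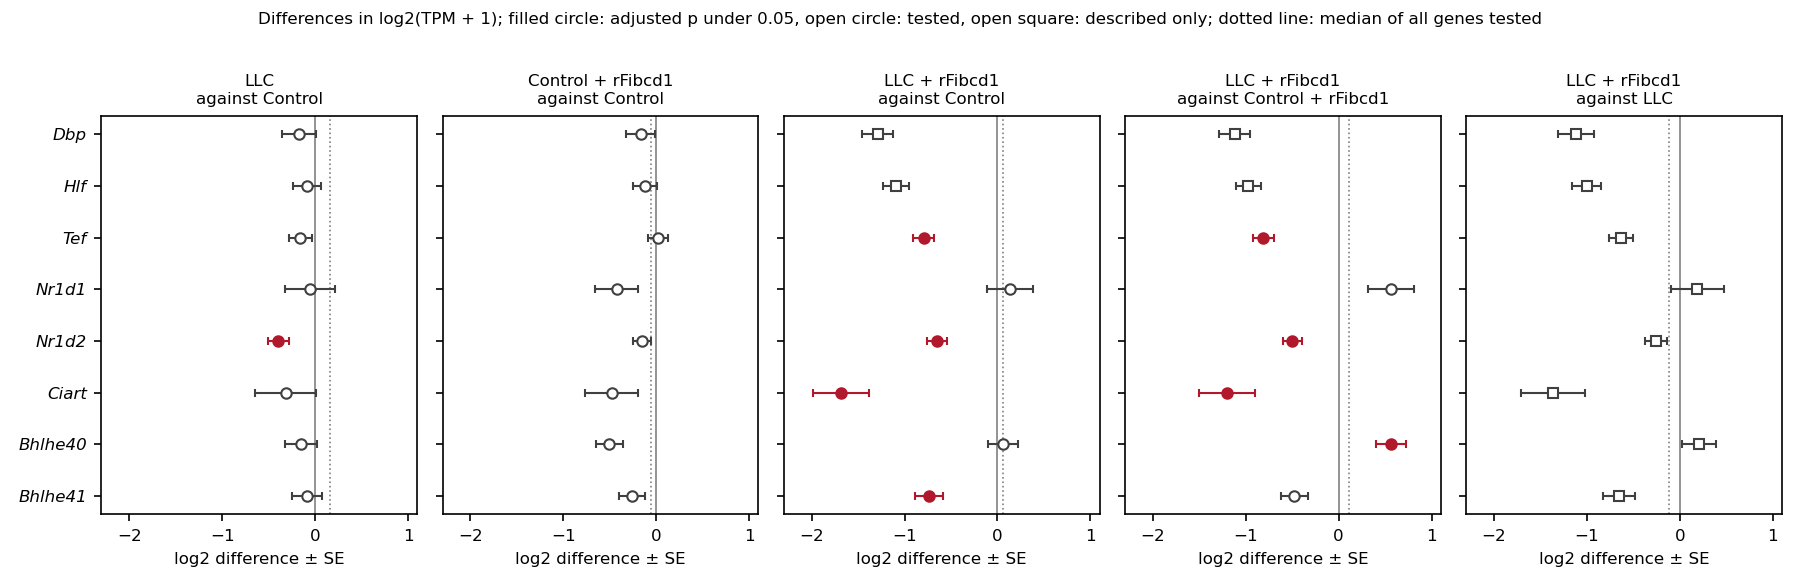
Differences in log2(TPM + 1) ± SE (x axis) of the 8 members (y axis) in 5 comparisons between groups, with the median of all genes tested as a dotted line. Filled circles passed an adjusted p of 0.05, open circles were tested and did not pass, and open squares are descriptions with no test. Tef, Nr1d2 and Ciart lie to the left and pass in both comparisons of LLC + rFibcd1 with a tumor-free group. All of these calls were lost with Dunn's test, which called 0 genes in any comparison. The Ciart call against Control + rFibcd1 was also lost with the replicate block and without any 1 of 4 single mice.

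The fourth comparison set LLC + rFibcd1 against Control + rFibcd1, the tumor comparison among treated mice, with the same 4 treated tumor-bearing mice as before. Tef (-0.81 ± 0.11, limma adjusted p = 0.00183), Nr1d2 (-0.50 ± 0.10, 0.0109) and Ciart (-1.20 ± 0.30, 0.0258) fell, and Bhlhe40 rose by 0.56 ± 0.16 (0.0420). Bhlhe41 was at -0.48 ± 0.15 (limma adjusted p = 0.0600) although 4 of 4 mice were below every Control + rFibcd1 mouse, and Nr1d1 was at 0.56 ± 0.25 (0.152). The 4 calls of 6 members compare with 8.06% of genes tested, the 3 lower calls with 1.04% and the 1 higher call with 7.02%. These shares moved with single mice. The 1072 genes called in all became 2893 without Control + rFibcd1 replicate 1 and 477 without LLC + rFibcd1 replicate 3. Of the 6, groups did not overlap for Tef, Nr1d2, Ciart and Bhlhe41 from below, as for 1.48% of genes, and for Bhlhe40 from above, as for 7.43%. These mice took part in choosing the members, so nothing is read from these counts as a group. The p-values of the members in this comparison are not independent of the choice either. The call on Ciart in LLC + rFibcd1 against Control + rFibcd1 was lost with the replicate block (adjusted p = 0.0738) and with Dunn's test (0.253), which called no member, and in 4 of 17 fits that left out 1 mouse (up to 0.0925). The Bhlhe40 call was lost in 7 of 10 other settings across all genes (adjusted p from 0.0179 to 0.191) and in 12 of 17 fits that left out 1 mouse. Without LLC + rFibcd1 replicate 4, the highest mouse, Bhlhe40 in LLC + rFibcd1 against Control + rFibcd1 was at 0.34 ± 0.09 (limma adjusted p = 0.0398) in place of 0.56. Against Control, the same 4 mice gave a Bhlhe40 difference of 0.06.

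Between LLC + rFibcd1 and LLC, the comparison that took part in choosing the members, the values are given without a test. Ciart differed by -1.37, Dbp by -1.12, Hlf by -1.001, Bhlhe41 by -0.65, Tef by -0.63, Nr1d2 by -0.25, Nr1d1 by 0.19 and Bhlhe40 by 0.21, with a median of -0.64 over the 8 against -0.11 over all genes tested. In 5 of the 8 (Dbp, Hlf, Tef, Ciart and Bhlhe41) the groups did not overlap, which was so for 9.3% of genes in this direction, and nothing is read from that share. The difference between the rFibcd1 differences with and without a tumor, which uses the same mice, was -0.95 for Dbp, -0.88 for Hlf and Ciart, -0.65 for Tef, -0.39 for Bhlhe41, -0.10 for Nr1d2, 0.62 for Nr1d1 and 0.71 for Bhlhe40, with a median of -0.52. The LLC + rFibcd1 mice with the lowest and the highest summed B cell markers, replicate 1 at 18.3 TPM and replicate 3 at 282 TPM, were at 73.4 and 70.1 TPM for Dbp, 3.48 and 3.04 TPM for Hlf, 45.9 and 47.5 TPM for Tef, 3.14 and 3.54 TPM for Ciart, 6.79 and 6.78 TPM for Bhlhe41, 63.0 and 51.4 TPM for Bhlhe40, 38.5 and 31.5 TPM for Nr1d2 and 135 and 73.5 TPM for Nr1d1. These are single mice, and the part of B cell content in this comparison was not tested on them. Replicate 2, the lowest mouse for Dbp, Hlf, Tef and Ciart, stood apart on several marker lists. It had the highest sums of its group for neutrophil (211 TPM), macrophage (809 TPM, against 303 to 525 TPM), fibroblast (922 TPM, against 469 to 683 TPM), adipocyte (496 TPM) and mesothelial markers (145 TPM), and the lowest for myofiber markers (51439 TPM). The part of these differences in the result was not tested.

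The members are steps of a loop, so the other clock genes were read beside them, from lists set by role. Low Dbp and Hlf in the LLC + rFibcd1 mice took part in choosing the members, and these lists belong to the same loop. For all the lists below, counts and p-values with those mice are therefore not independent of that choice. Among clock activators, Arntl rose in LLC + rFibcd1 in both comparisons with tumor-free mice, by 1.61 ± 0.24 against Control (limma adjusted p = 0.00333) and by 1.71 ± 0.24 against Control + rFibcd1 (0.00182). Arntl was at 2.73, 2.06, 5.72, 3.40 and 1.77 TPM in Control, 3.38, 2.45, 3.10, 2.28 and 2.31 TPM in Control + rFibcd1, 2.88, 4.72 and 4.00 TPM in LLC, and 11.1, 16.7, 8.27 and 9.42 TPM in LLC + rFibcd1. The 4 LLC + rFibcd1 mice were above every other mouse. The highest Arntl value fell in replicate 2, the mouse with the lowest Dbp, Hlf, Tef and Ciart, and the highest Control value fell in replicate 3, the Control mouse with the lowest Dbp, Hlf, Tef and Ciart. Clock, the partner of BMAL1, rose against Control + rFibcd1 by 0.56 ± 0.13 (limma adjusted p = 0.0193) and was at 0.40 ± 0.13 against Control (0.109). In all, 1 of the 4 tested activators rose against Control and 2 of 4 against Control + rFibcd1, where 2.07% and 7.02% of all genes tested were called higher. Dunn's test called 0 genes in any comparison, so every call on the clock genes of these lists was lost with it.

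Of the 6 clock repressors, 3 fell in LLC + rFibcd1 against Control and 2 against Control + rFibcd1, where 1.01% and 1.04% of all genes tested were called lower. The list's median log2 difference was -0.50 and -0.43, beside 0.06 and 0.11 over all genes tested. Per2, which closes the loop with the CRY proteins, fell by 1.39 (-1.39 ± 0.33, limma adjusted p = 0.0325) and by 1.47 (-1.47 ± 0.33, 0.0146), and Per3 fell by 1.09 (-1.09 ± 0.18, 0.00522) and by 1.08 (-1.08 ± 0.18, 0.00340). Per2 was at 15.9, 20.2, 6.48, 9.33 and 23.0 TPM in Control, 12.3, 13.9, 18.4, 12.8 and 15.2 TPM in Control + rFibcd1, 12.1, 9.19 and 16.2 TPM in LLC, and 3.48, 2.49, 7.03 and 6.58 TPM in LLC + rFibcd1. It overlapped with Control only through Control replicate 3. Cry2 fell against Control (-0.45 ± 0.10, limma adjusted p = 0.0297) and was at -0.33 ± 0.10 against Control + rFibcd1 (0.0610). Nfil3, the repressor that competes with the PAR bZIP factors for D-boxes, was at 0.43 ± 0.42 and 0.20 ± 0.42, with neither passing.

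Among 12 other clock-controlled outputs tested, 2 fell in each of these comparisons, where 1.01% and 1.04% of all genes were called lower, and none rose, where 2.07% and 7.02% were called higher. The list's median log2 difference was -0.41 and -0.24. Usp2, a deubiquitinase gene, fell in both (-0.76 ± 0.14, limma adjusted p = 0.00995, and -0.68 ± 0.14, 0.0105), Coq10b fell against Control (-0.87 ± 0.19, 0.0243) and Tspan4 fell against Control + rFibcd1 (-0.46 ± 0.13, 0.0402). Of 4 tested kinases and ligases of the clock, Btrc alone passed, against Control (-0.26 ± 0.06, limma adjusted p = 0.0261), beside the same 1.01% called lower. Of 6 tested genes with known ROR and REV-ERB elements, Arntl passed against Control, and Arntl and Clock against Control + rFibcd1, all upward, beside the same 2.07% and 7.02% called higher. In LLC against Control, Tspan4 (0.53 ± 0.14, limma adjusted p = 0.0144) was the 1 gene called in these 5 lists, beside 29.7% of all genes called higher, and in Control + rFibcd1 against Control none was. Tspan4 therefore stood higher than Control in LLC and lower than Control + rFibcd1 in LLC + rFibcd1.

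**Figure D3:**
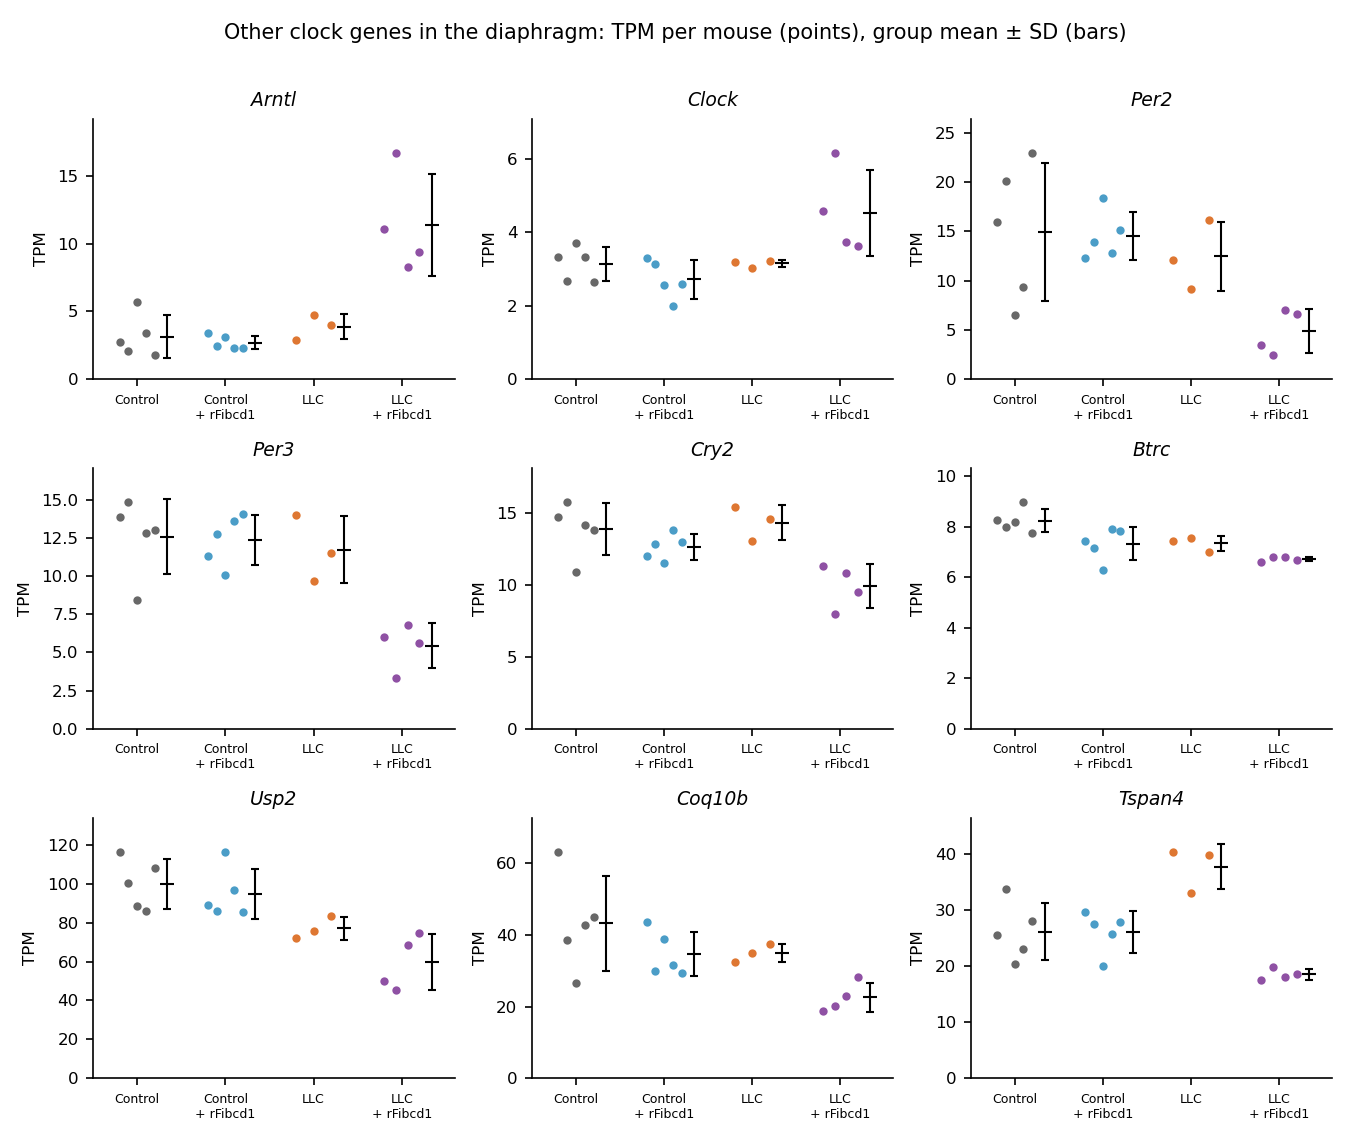
TPM of 9 other clock genes that passed the test in at least 1 comparison (y axis, from 0) in each mouse (points) of the 4 groups (x axis), with the group mean ± SD as black bars. Arntl lies above every other mouse in the 4 LLC + rFibcd1 mice, and Per3, Btrc and Usp2 lie below every Control mouse there.

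To ask whether the members vary together without a tumor, their log2(TPM + 1) was correlated over the 10 tumor-free mice in all 28 pairs. Of these, 24 had a positive Pearson r, none passed an adjusted p of 0.05 by Pearson or Spearman correlation (permutation tests with 100000 resamples, two-sided), and 6 were at an unadjusted p under 0.05 by Pearson and 4 by Spearman. By Pearson r the closest pair was Dbp with Tef (r = 0.80, permutation p = 0.00487, adjusted 0.103), followed by Nr1d1 with Bhlhe41 (r = 0.77, permutation p = 0.00986, adjusted 0.103). By Spearman the closest was Nr1d1 with Bhlhe41 (rho = 0.84, permutation p = 0.00397, adjusted 0.0997). Dbp with Ciart (0.81, 0.00712, adjusted 0.0997) and Dbp with Tef (0.73, 0.0199, adjusted 0.186) came next. Without the 2 mice farthest from the median of the first gene, r was 0.91 for Dbp with Tef and 0.85 for Nr1d1 with Bhlhe41. Dbp with Ciart (r = 0.75, permutation p = 0.0147, adjusted 0.103) and Hlf with Tef (r = 0.74, 0.0144, adjusted 0.103) were similar, and r fell to 0.66 and 0.24 without 2 mice. Leaving out the farthest mice also narrows the range of the first gene, so the fall does not show that a relation rested on them. With each group centred on its own mean, Hlf with Tef gave r = 0.79 (permutation p = 0.00805, adjusted 0.113). It gave 0.99 within Control and 0.57 within Control + rFibcd1. Nr1d1 with Nr1d2 gave r = 0.17 (permutation p = 0.643, adjusted 0.753).

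Within the groups of 5, Dbp and Tef had an r of 0.94 in Control and 0.88 in Control + rFibcd1. With both groups centred on their own mean, Dbp with Tef gave r = 0.87 and was the 1 pair with an adjusted p under 0.05 (permutation p = 0.00111, adjusted 0.0311). For Bhlhe40 and Bhlhe41 the sign differed between the pooled value (r = 0.12, permutation p = 0.725, adjusted 0.781) and the groups, with r of -0.69 in Control and -0.83 in Control + rFibcd1, and -0.70 centred on group means (permutation p = 0.0224, adjusted 0.127). Nr1d1 and Ciart had r of -0.70 in Control and 0.84 in Control + rFibcd1, on 5 mice each and with no test of that difference.

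**Figure D4:**
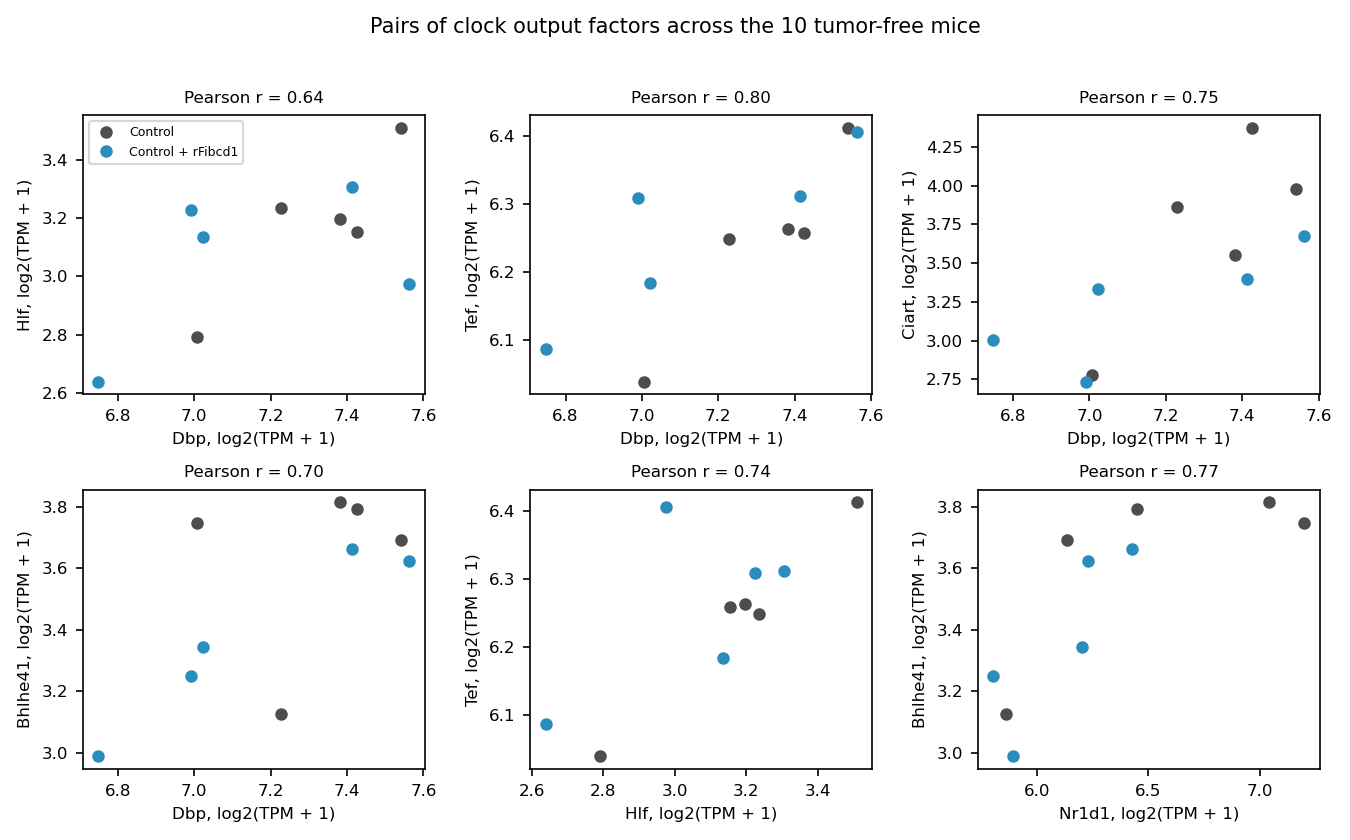
Log2(TPM + 1) of the 6 pairs of members with an unadjusted permutation p under 0.05 (each axis 1 gene), 1 point per tumor-free mouse, Control in grey and Control + rFibcd1 in blue. Points of both groups lie along the same direction for Dbp with Tef, at r = 0.80.

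Among 7984 genes with a mean of at least 5 TPM in tumor-free mice, those most like Dbp over the same 10 mice were RP23-455C13.7 and Tspan3 (both r = 0.88), A330094K24Rik and Pnck (both 0.87) and Ppp1r35 (0.86), and those most opposed were Cdc37l1 (-0.97), Lrrc30 (-0.90), Pcnx (-0.89), Fam160a1 (-0.88) and AU022252 (-0.87). For Hlf the closest were Axin2, Ddah2 and 2210016L21Rik (all 0.92), Stk39 and Lix1l (both 0.90), and the most opposed were Cdh15 (-0.92), Dffa (-0.87), Rxrg (-0.85), Dok5 (-0.85) and Atp2a1 (-0.84). These are the extremes of many correlations on 10 libraries and are given as a description. Of the 5 clock genes read in the same way, Per3 correlated with Dbp at 0.78 and with Hlf at 0.80, Arntl at -0.47 and -0.60, Nfil3 at -0.44 and -0.12, Per2 at 0.13 and 0.37, and Per1 at 0.02 and 0.13.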

How the data were processed

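RNA from the diaphragm of 17 mice was sequenced, and the titles of the samples gave the groups and replicate numbers. The deposited values are TPM (transcripts per 1000000), which the authors made by trimming and filtering paired reads, aligning them to the mouse genome (mm10 per the submitters' processing notes) and dividing the reads of each gene by its length. The sources differ on the library kit (stranded mRNA or TruSeq RNA v2), and the strand setting of the counting and the gene annotation release are not given in the sources used here. TPM sums to the same total in every sample, so a gene that takes a larger share lowers the rest. All 17 columns matched a sample and 0 were left over. Depth was recovered from low values, of which 79.3% to 82.0% per mouse fell within 0.02 of a whole read (4% by chance), and was used in no test.

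The filter kept genes that reached 1 TPM in 3 mice or more, 1 TPM was added, and log2 values of the 4 groups were fitted in a single linear model with empirical Bayes moderation (limma 3.58.1, R 4.3.3, 13 residual degrees of freedom). P-values are two-sided and were adjusted over all 13305 genes tested by the Benjamini-Hochberg procedure, with 0.05 as the threshold. In comparisons with LLC + rFibcd1, Dbp and Hlf were described and the other 6 members tested. Dunn's test, which the study's methods use, and exact permutation tests were run as alternatives, as were other pseudocounts, filters, scalings, a replicate block, a B cell covariate and leaving out each mouse. The study set its cutoffs on p and on the log2 ratio, and its methods name no adjustment over genes. Here the p-values of Dunn's test were adjusted over all genes tested. The members and gene lists were chosen with earlier results of these data known. All 8 members are named, from each list of other clock genes up to 4 genes per comparison with the largest difference among those called, and for Dbp and Hlf the 5 most and 5 least correlated genes. The mice are separate animals per group. Each limma p-value sets a difference between groups against the spread between mice, pooled over the 4 groups. The script was tested on simulated data. Promoter sequences are from RefSeq (GRCm38.p6), and gene positions from GENCODE vM21 on GRCm38, counted from 1.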

Additional observations from a re-analysis of the deposited data

Results flagged for a closer look

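In 4 of 24 sets of values (8 members in the groups of 4 or 5 mice), 1 mouse stood far from the rest, its gap to the nearest mouse divided by the range of the group being above Dixon's 95% critical value. Chance gives about 1 such set in 20. Dbp was at 47.0 TPM and Tef at 32.2 TPM in LLC + rFibcd1 replicate 2, with gaps of 0.874 and 0.893 of the range, and both lay below their group. Nr1d2 was at 38.5 TPM in LLC + rFibcd1 replicate 1, above its group, with a gap of 0.882. Bhlhe41 was at 7.74 TPM in Control replicate 5, below its group, with a gap of 0.787.

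For Bhlhe40, 3 of 3 LLC mice were below the Control mean and 4 of 4 LLC + rFibcd1 mice were above the Control + rFibcd1 mean. The tumor difference with rFibcd1 minus that without was 0.71 on the log2 scale, and this difference was not tested.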

How the results depend on the processing

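Some counts of called members changed with the processing. In LLC against Control the 1 called member (Nr1d2) became 0 with the B cell covariate (genes called in all: 9, against 4759), with Dunn's test and without LLC replicate 3 (24 genes called in all; 0 to 1 with each of the 17 mice left out in turn). In Control + rFibcd1 against Control the count was 0 except for 1 (Bhlhe40) by exact permutation tests of each member alone. In LLC + rFibcd1 against Control the 4 became 0 with Dunn's test, which called 0 genes in any comparison and did not fall below an adjusted p of 0.348 for these members, and 3 to 4 with a mouse left out. In LLC + rFibcd1 against Control + rFibcd1 the 4 became 0 with Dunn's test and 2 to 5 with a mouse left out (2 without Control + rFibcd1 replicate 4 or 5 or LLC + rFibcd1 replicate 2, each of which lost Ciart and Bhlhe40). Pairs of members past the threshold went from 0 to 1 with group-centred values and ranged from 0 to 2 with a mouse left out. The described medians of LLC + rFibcd1 against LLC and of the difference of differences ranged from -0.72 to -0.56 and from -0.60 to -0.43 with a mouse left out.

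Replicate numbers are shared between groups but did not pair the mice (mean correlation of same-numbered mice -0.05 over 22 pairs, 4 above 0.1, and 1 mouse that correlated best with its own number). A replicate block gave 0 called members in LLC against Control, where the genes called in all went from 4759 to 5, and 2 in LLC + rFibcd1 against Control + rFibcd1, where they went from 1072 to 492.

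Signs turned only for estimates that had not passed the test. Bhlhe40 in LLC against Control was 0.12 with the B cell covariate. Bhlhe40 in LLC + rFibcd1 against Control was -0.0107 after quantile normalization and ranged from -0.17 to 0.19 with a mouse left out, below 0 without LLC + rFibcd1 replicate 4 or Control replicate 3. With a mouse left out, Nr1d1 ranged from -0.22 to 0.11 in LLC against Control, above 0 without Control replicate 3 or 4, and from -0.032 to 0.30 in LLC + rFibcd1 against Control, below 0 without Control replicate 5. Tef in Control + rFibcd1 against Control ranged from -0.036 to 0.059, below 0 without Control replicate 3 or Control + rFibcd1 replicate 4. The cause of these changes was not tested. Between 94 and 1120 reads stood behind a value of Ciart, the fewest of the members, and the groups held 3 to 5 mice.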
